A study of Mus musculus with 12 samples.

Results

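The genes described here are 41 genes linked to the transcription factor NRF2 or to the antioxidant system. They cover NRF2 and its regulators, the glutathione and thioredoxin enzymes, the peroxiredoxins and the enzymes that supply NADPH. Whether NRF2 governs each of them in these cells was not tested. They were picked by name, through the Ensembl identifiers of the listed symbols, from 53465 genes in the count table, and the list was drawn up with earlier results of these data known. All 41 passed the filter on low counts that kept 19830 genes for testing.

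NRF2, encoded by Nfe2l2, is held by KEAP1 and degraded in unstressed cells. When electrophiles or peroxides modify KEAP1, NRF2 accumulates, pairs with small MAF proteins and binds antioxidant response elements near genes for quinone reduction, glutathione synthesis and thiol repair, while BACH1 occupies such elements as a repressor. Glutathione and thioredoxin carry electrons from NADPH to the peroxidases that remove hydrogen peroxide and lipid peroxides, and hematopoietic stem cells are known to lose repopulating function when peroxides build up.

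RNA was sequenced from 2 mouse bone marrow populations that had been sorted and then cultured for 2 days. Long-term hematopoietic stem cells (LT-HSCs) were Lin-, ckit+, sca1+, CD150+, CD48- and CD34-, and short-term cells (ST-HSCs) carried the same markers but were CD34+. The medium for both was Stemline II to which SCF (100 ng/ml) and Flt3 (2 ng/ml) had been added, used either alone (control) or with 1 mM nicotinamide riboside (NR), a vitamin B3 form from which cells make NAD, given again after 24 h. Each of the 4 groups (LT-HSC control, LT-HSC NR, ST-HSC control, ST-HSC NR) held 3 samples. The sources used here give no mouse strain, age or genetic modification. They also do not say whether the samples came from separate mice, so each p-value reflects a sample-to-sample spread that could be technical only. The culture began with sorted cells, but RNA was taken after 2 days, and in such bulk samples fewer cells of a type and less RNA per cell cannot be told apart.

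Each of the 12 libraries held between 24.6 M and 35.5 M gene counts (median 31.7 M). The share of reads that the counting placed in no feature (unassigned reads) was 28.5% in LT-HSC NR sample 3 and 26.2% in ST-HSC NR sample 3. It lay between 8.69% and 17.0% in the other 10 libraries. Not all transcripts of the sort markers followed the sort after the culture. Cd34 averaged 259 CPM (counts per M counts of the library, scaled by TMM factors) in LT-HSC control and 627 CPM in ST-HSC control, Kit stood at 1344 CPM or more in every library, and Cd48 averaged 0.831 and 5.07 CPM in these groups. Both populations were sorted as sca1+ and CD150+, but Ly6a, which encodes sca1, averaged 37.6 CPM in LT-HSC control and 6.24 CPM in ST-HSC control, and Slamf1, which encodes CD150, 39.0 and 18.9 CPM, both higher in LT-HSCs (edgeR adjusted p 3.45e-05 and 0.000437). Reads from a gene and from one on the opposite strand cannot be told apart where their exons share bases, because no strand setting of the counting was found in the sources used here. In the GENCODE M21 annotation this touches Keap1, Txnrd2, Txnip, Gclm, Gss, Prdx2, Prdx5, Gstm5, G6pdx and Me1, with at most 19.4% of exon bases shared (Txnip, with Gm15441). The Gstm and Gstp genes have near-identical relatives, so their counts are uncertain where reads could be split or dropped.

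The antioxidant response element gives these genes a possible common sequence, so the promoters were searched for its core TGACNNNGC on both strands. RefSeq promoter windows (build GRCm38.p6, 250 bases before to 50 after the start, 300 bases) matched 37 of the 41 genes. The core was present in a window of 11 of these 37 genes (29.7%), against 14.0% of all 27025 genes and 12.4% of all 32851 windows. The 6 stretches that follow are shown because they place the core beside genes whose RNA moved in different directions with NR: Nfe2l2, Gclm, Me1 and Txnrd1 were higher in at least 1 cell type, and Prdx1 and G6pdx were lower in at least 1. Each is written 5′ to 3′ on the gene's own strand, with the core in capitals (read as GCNNNGTCA where it lies on the other strand).
Nfe2l2: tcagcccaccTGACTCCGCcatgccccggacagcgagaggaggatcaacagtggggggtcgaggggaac
Gclm: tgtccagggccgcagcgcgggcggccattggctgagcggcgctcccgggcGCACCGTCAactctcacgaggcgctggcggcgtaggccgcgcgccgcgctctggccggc
Me1: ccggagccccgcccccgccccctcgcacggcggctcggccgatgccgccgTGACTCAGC
Txnrd1: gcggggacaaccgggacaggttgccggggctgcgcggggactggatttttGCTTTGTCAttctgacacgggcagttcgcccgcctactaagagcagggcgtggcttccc
Prdx1: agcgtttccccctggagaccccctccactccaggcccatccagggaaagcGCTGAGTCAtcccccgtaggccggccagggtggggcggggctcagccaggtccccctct
G6pdx: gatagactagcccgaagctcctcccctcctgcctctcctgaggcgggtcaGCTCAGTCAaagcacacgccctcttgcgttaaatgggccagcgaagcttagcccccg
The Nfe2l2 stretch lies at chr2:75704845-75704913 on the minus strand, with the core beginning 240 bases before the start. Gclm, which encodes a subunit of the rate-limiting enzyme of glutathione synthesis, has it 134 bases before the start (chr3:122245373-122245481, plus strand). In Me1, which encodes cytosolic malic enzyme, the core begins 6 bases before the start (chr9:86695912-86695970, minus strand) and holds TGANTCA, the site of AP-1 factors. The Txnrd1 stretch is at chr10:82859064-82859172 on the plus strand, 92 bases before the start. The core of Prdx1 also holds TGANTCA, 133 bases before the start (chr4:116685416-116685524, plus strand), and that of G6pdx lies 57 bases before the start (chrX:74428881-74428987, minus strand). By outcome in ST-HSCs, the core was present in 6 of 16 genes that rose, 2 of 5 that fell and 3 of 16 that were not called. In LT-HSCs the same counts were 4 of 10, 2 of 6 and 5 of 21. These matches are a description of the letters in the windows and not of binding.

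With NR, 10 of the 41 genes rose in LT-HSCs, 6 fell and 25 were not called at an adjusted p under 0.05 (edgeR quasi-likelihood test, adjusted over all 19830 genes). Of all genes tested, 2.38% rose and 7.58% fell in this comparison, and of the 10473 genes at a mean of 5 CPM or more, where 39 of the 41 genes lie, 4.20% rose and 14.0% fell. In ST-HSCs 18 genes rose, 5 fell and 18 were not called, beside 5.82% higher and 11.1% lower among all genes tested. At 5 CPM or more, 9.59% of genes were higher and 2091 of the 10473 were lower in this comparison. Set against genes at 5 CPM or more, the 6 falls in LT-HSCs were near the share of lower genes. The 5 falls in ST-HSCs were below that share. The median log2 change of the 41 genes was 0.06 in LT-HSCs and 0.24 in ST-HSCs, against 0.04 and -0.03 over all genes tested. The LT-HSC and ST-HSC comparisons use different libraries but may not be independent. Deviations of LT-HSC NR and ST-HSC NR samples from their group means correlated at 0.74 for sample 1, 0.15 for sample 2 and 0.84 for sample 3. The 10 genes higher in LT-HSCs (Nfe2l2, Nqo1, Osgin1, Srxn1, Txnip, Gclm, Cat, Gstm1, Taldo1, Me1) were higher in ST-HSCs as well, Txnrd2, Prdx1, Prdx2 and Prdx3 were lower in both, 16 were called in neither and 0 were called in opposite directions.

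**Figure D1:**
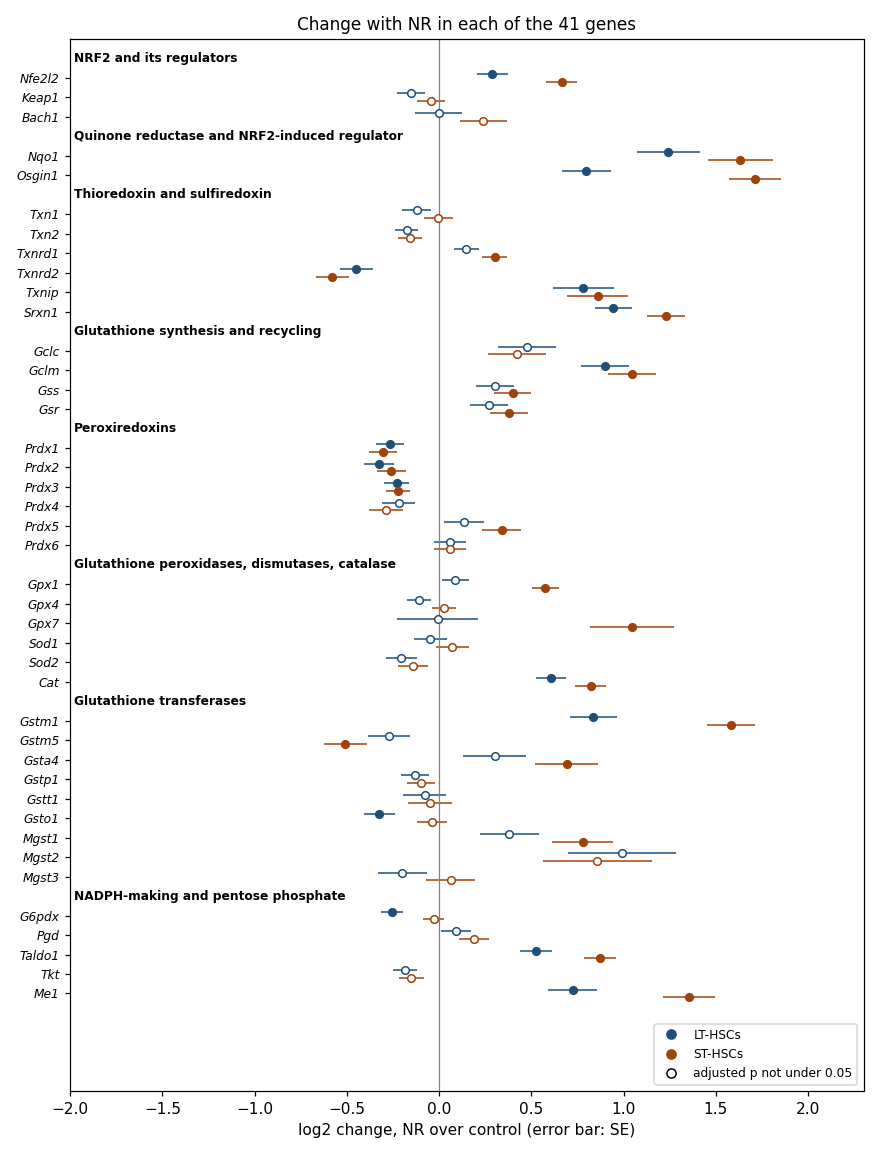
Change of each of the 41 genes with NR (log2, horizontal axis, error bars SE) in LT-HSCs (blue) and ST-HSCs (brown), grouped by role, with open points where the adjusted p was not under 0.05. Nqo1 and Osgin1 lie farthest to the right in ST-HSCs, at 1.63 and 1.71, and Txnrd2 farthest to the left, at -0.58.

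Of the NR calls, those of higher genes held in more of the other fits than those of lower genes. In LT-HSCs 8 of the 10 higher genes stayed called under all 9 other settings and without each library of the comparison in turn, the exceptions being Nfe2l2 and Txnip. Only Txnrd2 of the 6 lower genes did so. Without the 2 libraries rich in unassigned reads the LT-HSC counts were 12 higher and 1 lower, beside 2.63% and 4.42% of all genes tested. In ST-HSCs 14 of the 18 higher genes and 1 of the 5 lower genes (again Txnrd2) stayed called throughout. The ST-HSC counts without those 2 libraries were 21 and 2, beside 7.79% and 6.20% of all genes tested. With relative log expression factors the split was 14 higher and 4 lower in LT-HSCs, a share of 77.8% higher in place of 62.5%. The share over all called genes moved the same way, from 23.9% to 37.4% higher. Same-numbered LT-HSC samples deviated together most for samples 1 and 3 (correlations 0.51 and 0.71, against 0.25 for sample 2). With the replicate block 13 genes were higher and 7 lower in LT-HSCs, beside 3.38% and 9.57% of all genes tested. Gclc, Gsr and Mgst2 were added to the higher genes and Tkt to the lower.

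Nfe2l2 (chr2:75675513-75704641, minus strand) encodes NRF2 itself. It stood at 129, 147 and 132 CPM in LT-HSC control and 169, 183 and 147 CPM with NR, and at 121, 124 and 122 CPM in ST-HSC control and 211, 187 and 184 CPM with NR. The ST-HSC groups did not overlap, while LT-HSC NR sample 3 met the highest control. Nfe2l2 rose by 0.66 ± 0.09 (log2, SE) in ST-HSCs and by 0.29 ± 0.08 in LT-HSCs, where the edgeR adjusted p of 0.0497 went up to 0.202 as single libraries were left out and the call ended without 5 of 6 libraries. Keap1, the adaptor that marks NRF2 for degradation, was at 116, 133 and 122 CPM in LT-HSC control, 110, 114 and 110 CPM in LT-HSC NR, 123, 112 and 107 CPM in ST-HSC control and 104, 120 and 108 CPM in ST-HSC NR. Bach1, the repressor, was at 18.7, 16.5 and 18.9 CPM, then 17.6, 18.7 and 17.7 CPM with NR in LT-HSCs, and at 14.4, 15.3 and 18.7 CPM, then 19.6, 21.4 and 16.1 CPM with NR in ST-HSCs. Neither was called: the 95% interval of the change ran from -0.32 to 0.01 in LT-HSCs and -0.21 to 0.12 in ST-HSCs for Keap1, and from -0.27 to 0.27 and -0.03 to 0.51 for Bach1.

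In ST-HSCs the steepest rises were those of Osgin1 and Nqo1, and in LT-HSCs the called gene that rose most was Nqo1. Nqo1 (chr8:107388225-107403206, minus strand) encodes the quinone reductase that serves as a standard readout of NRF2. Its level was 94.5, 114 and 98.3 CPM in LT-HSC control and 212, 331 and 182 CPM with NR, and 57.5, 51.1 and 53.6 CPM in ST-HSC control and 163, 184 and 156 CPM with NR. All NR samples lay above all controls of their cell type, LT-HSC NR sample 2 being the highest. The rise was 2.36-fold in LT-HSCs (log2 1.24 ± 0.17) and 3.10-fold in ST-HSCs (1.63 ± 0.17). Osgin1 (chr8:119434124-119446256, plus strand), an oxidative stress-induced growth inhibitor, was scarcer, at 8.93, 10.9 and 10.9 CPM in LT-HSC control against 17.0, 20.3 and 16.1 CPM with NR. In ST-HSCs it went from 4.49, 5.54 and 4.81 CPM to 14.3, 16.8 and 17.5 CPM. Its groups did not overlap in either cell type, and the rise was 1.74-fold in LT-HSCs and 3.28-fold in ST-HSCs.

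**Figure D2:**
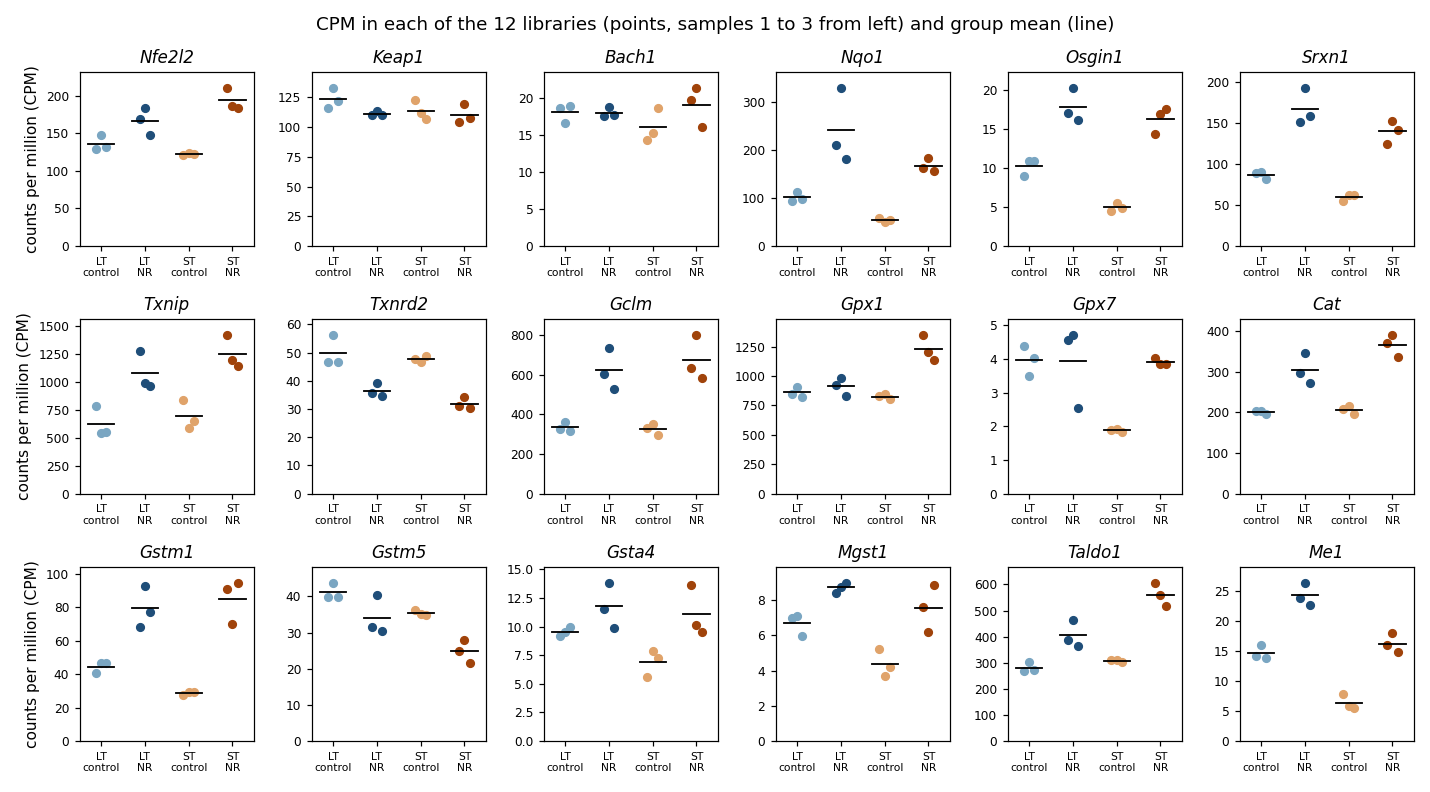
CPM (vertical axis, from 0) of 18 genes in each library, as points for samples 1 to 3 of each group with a line at the group mean. Nqo1 ran from 51.1 CPM in ST-HSC control to 331 CPM in LT-HSC NR, and for Osgin1, Srxn1, Gclm, Cat, Gstm1, Taldo1 and Me1 every NR sample lies above the controls of its cell type.

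Within the thioredoxin system the components parted. Srxn1 encodes sulfiredoxin, which repairs over-oxidized peroxiredoxins. It was at 88.4, 90.3 and 81.7 CPM in LT-HSC control and 151, 192 and 158 CPM with NR, and at 54.4, 62.2 and 61.6 CPM in ST-HSC control and 125, 152 and 142 CPM with NR. All NR samples were above all controls, and it rose 1.92-fold in LT-HSCs and 2.35-fold in ST-HSCs. Txnip encodes the thioredoxin-interacting protein, which binds reduced thioredoxin and also restrains glucose uptake. It was among the most abundant of these genes, at 786, 541 and 550 CPM in LT-HSC control and 1275, 988 and 965 CPM with NR, and at 834, 585 and 653 CPM in ST-HSC control and 1419, 1198 and 1144 CPM with NR. Sample 1 was the highest of every group, and NR and control did not overlap. Txnip rose by 0.78 ± 0.17 in LT-HSCs, a call lost when control sample 2 or NR sample 1 was left out (highest adjusted p 0.0693, edgeR), and by 0.86 ± 0.17 in ST-HSCs.

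In ST-HSCs the mitochondrial and cytosolic thioredoxin reductases moved in opposite directions. Txnrd2, the mitochondrial enzyme, was at 46.5, 56.2 and 46.8 CPM in LT-HSC control and 35.7, 39.1 and 34.7 CPM with NR, and at 47.6, 46.7 and 48.7 CPM in ST-HSC control and 31.2, 34.1 and 30.4 CPM with NR. NR samples lay below all controls in both cell types. Txnrd2 fell by 0.45 ± 0.09 (log2) in LT-HSCs and by 0.58 ± 0.09 in ST-HSCs. Txnrd1, the cytosolic enzyme, rose in ST-HSCs (0.30 ± 0.07) and was not called in LT-HSCs (0.15 ± 0.07). The per-length ratio of Txnrd1 to Txnrd2 was 4.50 ± 0.35 (SD) in LT-HSC control and 6.75 ± 0.22 with NR, and 4.74 ± 0.15 and 8.74 ± 0.20 in ST-HSCs. The thioredoxins themselves, cytosolic Txn1 and mitochondrial Txn2, were not called, with changes of -0.12 and -0.18 in LT-HSCs and -0.00 and -0.16 in ST-HSCs.

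In glutathione synthesis the modifier subunit of glutamate-cysteine ligase rose in both cell types, while the catalytic subunit missed the threshold in both but passed it under most other settings. Gclm was at 324, 362 and 317 CPM in LT-HSC control and 604, 737 and 530 CPM with NR, and at 332, 353 and 294 CPM in ST-HSC control and 634, 800 and 584 CPM with NR. NR samples were above all controls, sample 2 being the highest of each group, and Gclm rose 1.87-fold in LT-HSCs and 2.06-fold in ST-HSCs. Gclc, the catalytic subunit of the same ligase, changed by 0.48 ± 0.16 and 0.42 ± 0.16, with edgeR adjusted p-values of 0.0769 and 0.0910, and it was called higher in LT-HSCs under all 9 other settings and in ST-HSCs under 8 of them, the exception being the fit of the compared groups alone. Per length, Gclm exceeded Gclc by 1.74 ± 0.15 times (SD) in LT-HSC control and 2.31 ± 0.05 times with NR, and by 1.79 ± 0.19 and 2.74 ± 0.22 times in ST-HSCs. Gss, glutathione synthetase, and Gsr, the reductase that regenerates glutathione, rose in ST-HSCs by 0.40 ± 0.10 and 0.38 ± 0.10. In LT-HSCs they changed by 0.30 ± 0.10 and 0.27 ± 0.10 and were not called. The ST-HSC calls of both ended when single libraries were left out, with adjusted p-values of at most 0.0623 for Gss and 0.0956 for Gsr (edgeR).

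The 6 peroxiredoxins, peroxidases that draw on thioredoxin or glutathione, held 3 falls in each cell type and 1 rise, in ST-HSCs. Cytosolic Prdx1 and Prdx2 and mitochondrial Prdx3 fell in both cell types, by 0.22 to 0.33 on the log2 scale. Prdx1, for instance, went from 660, 734 and 676 CPM to 541, 652 and 527 CPM in LT-HSCs and from 673, 703 and 677 CPM to 550, 583 and 528 CPM in ST-HSCs. All 6 of these calls ended without the 2 libraries rich in unassigned reads, where the smallest change was -0.10 (Prdx3 in ST-HSCs) and no direction turned. Prdx4, the peroxidase of the endoplasmic reticulum, was not called (-0.22 and -0.29), nor was Prdx6 (0.06 in both). Prdx5 rose in ST-HSCs by 0.34 ± 0.11, a call that ended without 5 of the 6 libraries in turn, and changed by 0.14 ± 0.11 in LT-HSCs. Set against Prdx1, whose oxidized form it repairs, Srxn1 stood at a per-length ratio of 0.136 ± 0.008 (SD) in LT-HSC control and 0.314 ± 0.012 with NR, and 0.0936 ± 0.0057 and 0.272 ± 0.024 in ST-HSCs.

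**Figure D3:**
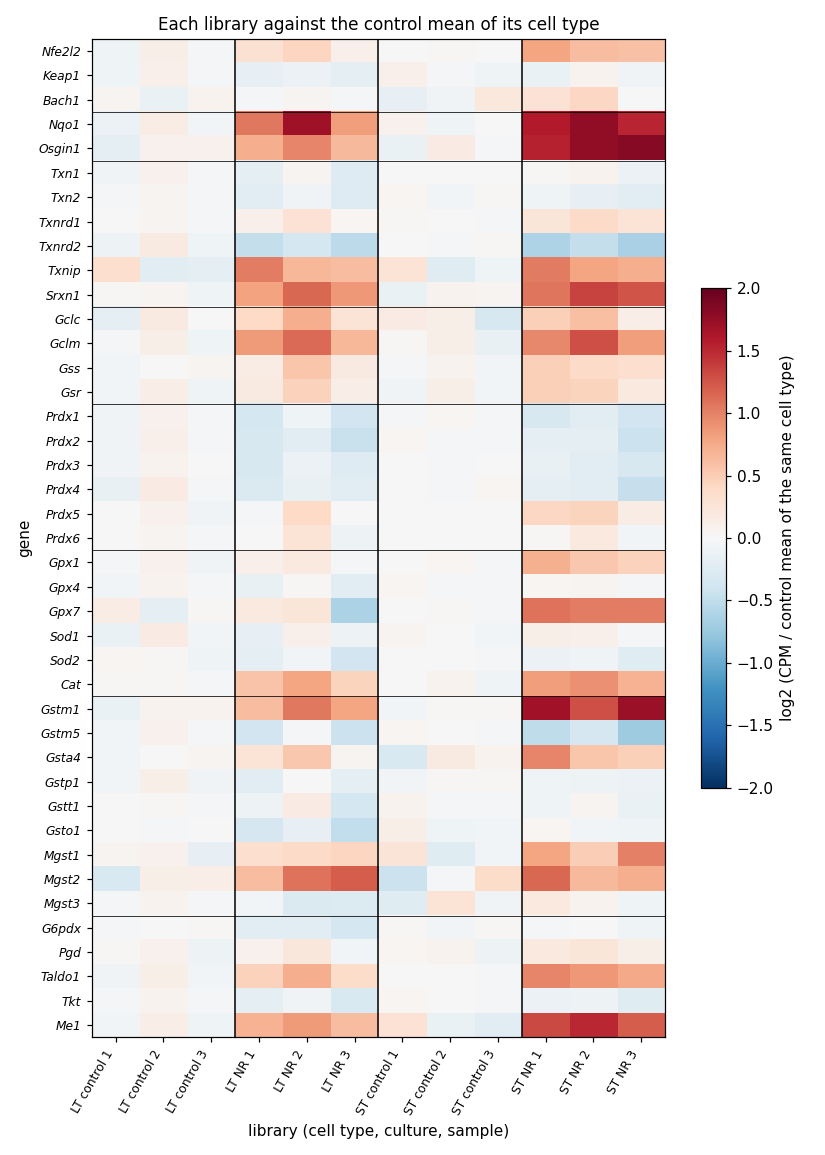
Each of the 41 genes (rows, grouped by role) in each of the 12 libraries (columns), as log2 of its CPM over the control mean of the same cell type, red above and blue below. The columns of the NR samples are red at Nqo1, Osgin1, Srxn1, Txnip, Gclm, Cat, Gstm1, Taldo1 and Me1 and blue at Txnrd2 in both cell types.

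Catalase, which breaks down hydrogen peroxide in peroxisomes, rose in both populations. Cat was at 203, 203 and 195 CPM in LT-HSC control and 297, 345 and 273 CPM with NR, and at 208, 217 and 196 CPM in ST-HSC control and 370, 390 and 335 CPM with NR. There was no overlap between NR and control, and the rise was 1.52-fold and 1.77-fold. Gpx1, the cytosolic glutathione peroxidase and per length the most abundant of the 41 genes in every group, was at 849, 909 and 823 CPM in LT-HSC control and 925, 984 and 833 CPM with NR. In ST-HSCs it went from 831, 843 and 800 CPM to 1346, 1203 and 1138 CPM. The LT-HSC groups overlapped and the ST-HSC groups did not: Gpx1 rose 1.49-fold in ST-HSCs (0.58 ± 0.07) and was not called in LT-HSCs (0.09 ± 0.07).

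Gpx7, a peroxidase of the endoplasmic reticulum, was scarce. It was at 4.39, 3.49 and 4.03 CPM in LT-HSC control and 4.56, 4.70 and 2.55 CPM with NR, and at 1.90, 1.93 and 1.84 CPM in ST-HSC control and 4.03, 3.86 and 3.83 CPM with NR. Its ST-HSC controls were below every other sample, and it rose there by 1.05 ± 0.23, with a change of -0.01 ± 0.22 in LT-HSCs. Gpx4, which reduces lipid peroxides, and the superoxide dismutases Sod1 (cytosol) and Sod2 (mitochondria) were not called in either cell type, with changes from -0.20 to 0.07.

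The 9 glutathione transferases, which couple glutathione to electrophiles, did not move as a block: 1 rose and 1 fell in LT-HSCs, and 3 rose and 1 fell in ST-HSCs. Gstm1 and Gstm5 are both mu-class genes of chromosome 3 (108012255-108017973, minus strand, and 107895821-107898686, plus strand). Gstm1 was at 40.5, 46.6 and 46.6 CPM in LT-HSC control and 68.5, 93.0 and 77.0 CPM with NR, and at 27.4, 29.1 and 29.0 CPM in ST-HSC control and 91.0, 70.0 and 94.7 CPM with NR. All NR samples lay above the controls, a rise of 1.78-fold in LT-HSCs and 2.99-fold in ST-HSCs. Gstm5 went the other way: it was at 39.8, 43.8 and 40.0 CPM in LT-HSC control and 31.6, 40.2 and 30.4 CPM with NR, and at 36.2, 35.1 and 34.7 CPM in ST-HSC control and 24.8, 28.0 and 21.6 CPM with NR. It fell in ST-HSCs by 0.51 ± 0.12, a call that ended without NR sample 3 (-0.35), and was not called in LT-HSCs (-0.27 ± 0.12). The per-length ratio of Gstm1 to Gstm5 was 0.939 ± 0.066 (SD) in LT-HSC control and 2.03 ± 0.16 with NR, and 0.700 ± 0.039 and 3.05 ± 0.83 in ST-HSCs.

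The alpha-class gene Gsta4, whose enzyme clears lipid aldehydes, and the membrane-bound Mgst1 rose in ST-HSCs. Gsta4 was at 9.20, 9.50 and 9.98 CPM in LT-HSC control and 11.6, 13.8 and 9.92 CPM with NR, and at 5.61, 7.83 and 7.23 CPM in ST-HSC control and 13.6, 10.1 and 9.57 CPM with NR. Mgst1 was at 6.98, 7.11 and 5.99 CPM in LT-HSC control and 8.41, 8.76 and 8.99 CPM with NR, and at 5.25, 3.72 and 4.23 CPM in ST-HSC control and 7.59, 6.22 and 8.84 CPM with NR. Only the LT-HSC groups of Gsta4 overlapped. The ST-HSC changes were 0.69 ± 0.17 for Gsta4, a call that ended without control sample 1 or NR sample 1 (edgeR adjusted p of 0.0686 at most), and 0.78 ± 0.16 for Mgst1. In LT-HSCs they were 0.30 ± 0.17 and 0.38 ± 0.16 and were not called. Gsto1, an omega-class enzyme that also reduces dehydroascorbate, fell in LT-HSCs by 0.33 ± 0.08 and changed by -0.04 ± 0.08 in ST-HSCs. Mgst2 changed by 0.99 ± 0.29 and 0.86 ± 0.30 at a mean of 1.99 CPM, just short of the threshold in LT-HSCs (edgeR adjusted p 0.0501). Gstp1, Gstt1 and Mgst3 were not called, with changes between -0.20 and 0.06.

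Of the 5 genes that supply NADPH or pass sugars through the pentose phosphate pathway, Taldo1 and Me1 rose in both cell types. Taldo1 encodes transaldolase of the non-oxidative branch. It was at 269, 304 and 271 CPM in LT-HSC control and 388, 463 and 363 CPM with NR, and at 309, 310 and 301 CPM in ST-HSC control and 607, 558 and 518 CPM with NR. Me1 was at 14.2, 16.1 and 13.8 CPM, then 23.8, 26.4 and 22.6 CPM with NR in LT-HSCs, and at 7.77, 5.79 and 5.49 CPM, then 15.9, 18.0 and 14.8 CPM with NR in ST-HSCs. Neither gene overlapped between control and NR. Taldo1 rose 1.44-fold in LT-HSCs and 1.83-fold in ST-HSCs, and Me1 1.65-fold and 2.56-fold. The oxidative branch makes the NADPH of this pathway. Its first enzyme, G6pdx, fell in LT-HSCs by 0.26 ± 0.06 and changed by -0.03 ± 0.06 in ST-HSCs. Pgd, of the same branch, changed by 0.09 ± 0.08 in LT-HSCs and by 0.19 ± 0.08 in ST-HSCs, where it was at 161, 165 and 146 CPM in control and 181, 187 and 170 CPM with NR. Its ST-HSC groups did not overlap, and although the edgeR adjusted p was 0.141, it was called higher under 8 of 9 other settings, no filter being the exception. Tkt, the transketolase that works beside Taldo1, was not called either (-0.18 ± 0.07 and -0.15 ± 0.07), so the per-length ratio of Taldo1 to Tkt was 1.35 ± 0.04 (SD) in LT-HSC control and 2.20 ± 0.11 with NR, and 1.42 ± 0.03 and 2.88 ± 0.14 in ST-HSCs.

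Whether the NR effect itself differed between ST-HSCs and LT-HSCs was tested with an interaction term. By edgeR, 0 of the 41 genes passed, beside 0.0101% of all genes tested (2 genes). At an unadjusted p under 0.05 there were 9 (Nfe2l2, Gpx1, Gpx7, Gstm1, Gsto1, Taldo1, G6pdx, Me1 and Osgin1), each with the higher log2 change in ST-HSCs. The share of all genes at that unadjusted threshold was not counted. DESeq2 called 4, all with the higher change in ST-HSCs: Gpx1, Gstm1, G6pdx and Osgin1. Of all genes tested, DESeq2 called 0.479% with the higher and 0.207% with the lower change in ST-HSCs. The edgeR estimate of the difference was 0.91 for Osgin1 (95% interval 0.50 to 1.33, adjusted p 0.226), 0.75 for Gstm1 (0.36 to 1.13, adjusted p 0.307) and 0.49 for Gpx1 (0.26 to 0.71, adjusted p 0.245). Gpx1 passed in 4 edgeR settings (upper-quartile factors, the stricter filter, the replicate block and the unassigned share as covariate), and Gstm1 and Osgin1 with no filter on low counts. For Gclm, Txnip and Cat the intervals of the difference were -0.25 to 0.54, -0.42 to 0.58 and -0.04 to 0.47, all of which include 0.

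LT-HSCs and ST-HSCs were next compared within each culture. In control culture 8 of the 41 genes were higher in LT-HSCs and 0 were lower, beside 3.51% and 1.50% of all genes tested (edgeR). At an unadjusted p under 0.05 there were 11 genes, the 8 and Prdx5, Gsta4 and Mgst1, all higher. DESeq2 called 10 higher and 0 lower, beside 5.51% and 2.71% of all genes tested. Me1 stood 2.31-fold higher (log2 1.21 ± 0.14), Gpx7 2.10-fold, Osgin1 2.07-fold, Nqo1 1.89-fold, Prdx4 1.60-fold, Gstm1 1.56-fold, Gstt1 1.52-fold and Srxn1 1.46-fold. The control groups of these 8 genes did not overlap, but those of some uncalled genes did not either. Among the uncalled, LT-HSCs lay above in Nfe2l2, Prdx5, Gstm5, Gsta4 and Mgst1 and below in Gss, Prdx3, Sod2 and Gsto1. How often the groups did not overlap over all genes was not counted. Of the 8 called genes, all but Gpx7 stayed called under every other setting and without each library. Nfe2l2, Keap1 and Bach1 were not called here (0.16, 0.12 and 0.16).

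With NR, 4 genes were higher in LT-HSCs and 4 lower, beside 3.80% and 2.27% of all genes tested. Prdx4, Gstt1, Me1 and Gstm5 were higher, by 0.75 ± 0.09, 0.58 ± 0.12, 0.58 ± 0.13 and 0.46 ± 0.12, and Taldo1, Gpx1, Gsto1 and G6pdx were lower, with differences of -0.47 ± 0.09, -0.43 ± 0.07, -0.39 ± 0.08 and -0.24 ± 0.06. Prdx4, at 77.6, 85.0 and 80.5 CPM in LT-HSC NR and 51.3, 50.6 and 42.8 CPM in ST-HSC NR, differed by 0.75, beside 0.68 in control culture, where it was at 85.2, 106 and 92.0 CPM against 58.5, 57.6 and 60.5 CPM. Gstt1 differed by 0.58, beside 0.61 in control culture, at 22.9, 23.2 and 22.6 CPM against 15.7, 14.8 and 14.6 CPM in control culture and 21.4, 25.7 and 17.9 CPM against 14.2, 15.6 and 13.7 CPM with NR. Osgin1, Gstm1 and Gpx7 were not called with NR (0.13, -0.10 and 0.01). These comparisons reuse the libraries of the NR comparisons, so the smaller gaps with NR and the higher ST-HSC changes are the same values seen from another side. Same-numbered NR samples deviated together most for samples 1 and 3 (correlations 0.74 and 0.84, against 0.15 for sample 2). With the replicate block 6 genes were higher and 7 lower, beside 5.11% and 3.17% of all genes tested. Nqo1 and Srxn1 joined the higher genes and Txnip, Cat and Pgd the lower. Scaling by relative log expression gave 4 higher and 7 lower, a share of 36.4% higher in place of equal numbers. Over all called genes the share moved from 62.5% to 57.5% higher. Only Prdx4, Gpx1 and Taldo1 stayed called under every setting and without each library.

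**Figure D4:**
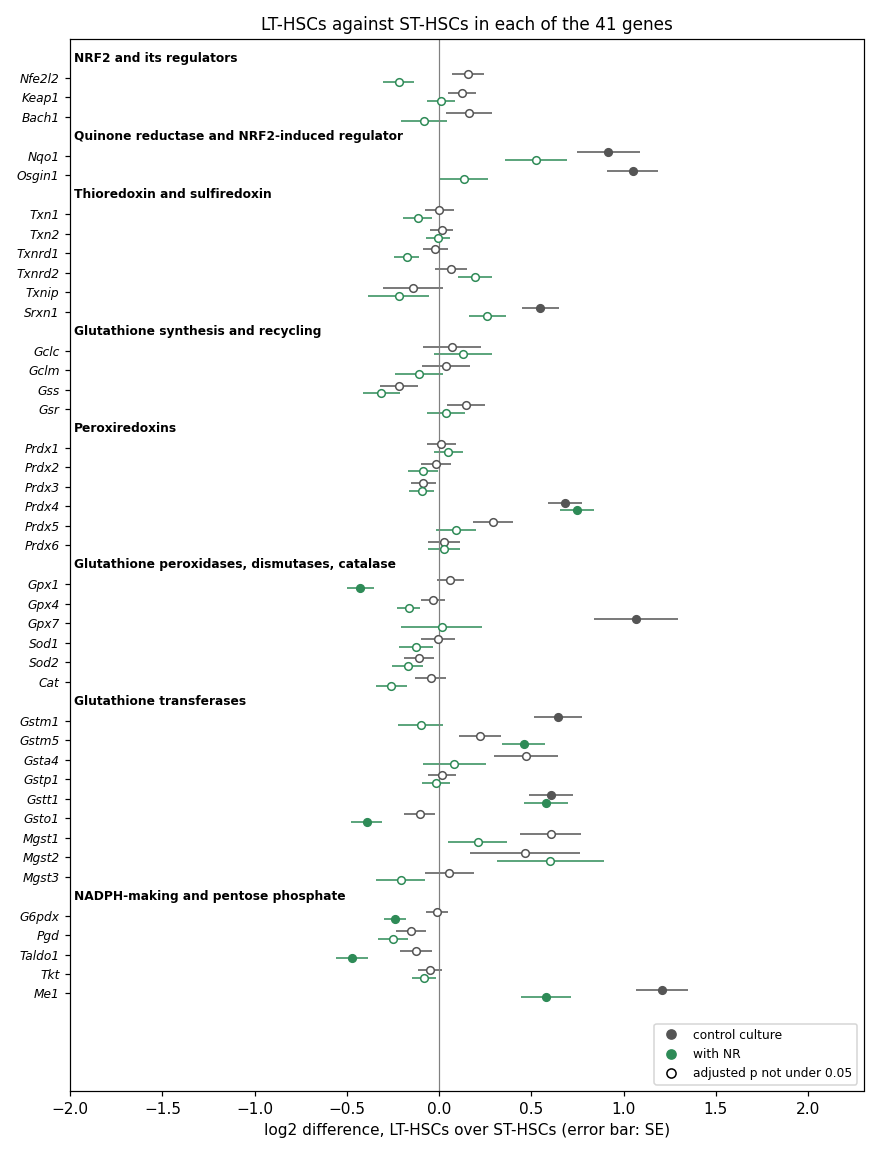
Difference of each gene between LT-HSCs and ST-HSCs (log2, horizontal axis, error bars SE) in control culture (grey) and with NR (green), with open points where the adjusted p was not under 0.05. Prdx4 and Gstt1 lie to the right in both cultures, Osgin1 at 1.05 in control culture and 0.13 with NR, and Gpx1 at 0.06 and -0.43.

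Levels can be compared between genes per kilobase of exon. In LT-HSC control Gpx1 was the highest, at 597 ± 31 CPM per kb (SD), followed by Txn1 (373 ± 21), Prdx1 (227 ± 13) and Txnip (200 ± 44), the last 2 within their spread of each other. Taldo1 (130 ± 9), Gpx4 (131 ± 6) and Prdx6 (133 ± 4) followed and did not differ beyond their spread. With NR in ST-HSCs the order was Gpx1 (853 ± 74), Txnip (401 ± 47), Txn1 (372 ± 24), Taldo1 (258 ± 20) and Prdx1 (182 ± 9), with Txnip and Txn1 within their spread of each other. At the other end in LT-HSC control were Mgst2 (0.428 ± 0.071), Bach1 (2.92 ± 0.21) and Gpx7 (3.08 ± 0.35).

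Genes of 6 related kinds outside the 41 were counted in the same fits, from lists written with earlier results of these data known. The shares over all genes tested, 2.38% higher and 7.58% lower in LT-HSCs and 5.82% and 11.1% in ST-HSCs, are the background for all these counts. Among 23 tested genes of NRF2-linked detoxification and transport, 7 rose and 2 fell in each cell type, the 2 falls being near that background. Sqstm1, the autophagy receptor that also binds KEAP1, rose by 0.65 ± 0.07 in LT-HSCs and 1.11 ± 0.07 in ST-HSCs, and Blvrb, a biliverdin reductase, by 1.25 ± 0.14 and 1.71 ± 0.14. Ephx1, an epoxide hydrolase, rose by 1.14 ± 0.16 and 1.91 ± 0.18, while Akr1b3, an aldose reductase, fell by 0.59 ± 0.08 and 0.56 ± 0.08. Heme oxygenase Hmox1, named after its values were seen, rose by 2.18 ± 0.37 and 2.61 ± 0.39, and the cystine transporter gene Slc7a11, named in the same way, was not called (-0.25 ± 0.25 and -0.55 ± 0.25).

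Lower calls outnumbered higher ones over all genes as well in the main fit, with 1503 lower and 472 higher in LT-HSCs and 2193 and 1155 in ST-HSCs. For ST-HSCs this depended on the setting. Higher calls led with relative log expression factors (1662 higher, 1552 lower), with DESeq2 (2049 and 1990) and without the 2 libraries rich in unassigned reads (1545 and 1229). In LT-HSCs lower calls led in these 3 settings too. Among 9 NRF2 partners and degraders, edgeR called 0 higher and 1 lower in each cell type (Rbx1 in LT-HSCs, Gsk3b in ST-HSCs, by 0.29 ± 0.08 and 0.33 ± 0.10), with 1 higher in each at an unadjusted p under 0.05 and by DESeq2. Lower calls by DESeq2 were 1 in LT-HSCs and 0 in ST-HSCs, so the Gsk3b call was not shared. Of 25 further glutathione genes, edgeR called 0 higher and 8 lower in LT-HSCs (2 higher at an unadjusted p under 0.05 and by DESeq2), and 1 rose and 8 fell in ST-HSCs. Among the genes that fell were the aminopeptidase gene Lap3 (-0.53 ± 0.08 and -0.54 ± 0.08) and the mitochondrial glutaredoxin Glrx5 (-0.47 ± 0.07 and -0.49 ± 0.07). Of 18 other NADPH suppliers, edgeR called 0 higher and 8 lower in LT-HSCs (1 higher at an unadjusted p under 0.05 and by DESeq2) and 0 higher and 7 lower in ST-HSCs (0 higher by both of these), including the folate enzyme Mthfd1 (-0.59 ± 0.07 and -0.54 ± 0.07). Of 16 genes of selenoproteins or their synthesis, edgeR called 0 higher and 4 lower in LT-HSCs (2 higher at an unadjusted p under 0.05 and by DESeq2). By edgeR 3 rose and 3 fell in ST-HSCs (7 and 3 by DESeq2), where Selenow rose by 0.76 ± 0.09. Of 16 thioredoxin relatives, 1 rose and 1 fell in LT-HSCs and 3 rose and 2 fell in ST-HSCs: Sesn2, a sestrin, rose by 0.71 ± 0.07 and 1.16 ± 0.08, and Park7 fell by 0.58 ± 0.09 and 0.56 ± 0.08.

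Markers of stem cells and of other cell types were summed in the same groups, and a count of 1 called gene is too small to read against the shares over all genes. Of 10 sort and stem cell markers, 3 rose and 1 fell in ST-HSCs: Procr rose by 2.11 ± 0.26 (log2, SE), Fgd5 by 0.94 ± 0.18 and Hlf by 0.53 ± 0.09, and Slamf1 fell by 0.65 ± 0.14. In LT-HSCs these 4 genes changed by 0.74, 0.24, 0.11 and -0.41 and were not called. The summed level of 10 monocyte, macrophage and dendritic markers was 271 to 288 CPM in ST-HSC control and 352 to 425 CPM in ST-HSC NR (2 of 9 tested genes higher), and 318 to 354 CPM and 331 to 426 CPM in LT-HSCs (1 of 9 higher), where the groups overlapped. The 7 megakaryocyte and platelet markers summed to 2954 to 3250 CPM and 1699 to 2220 CPM in ST-HSCs (4 of 7 lower), and to 3005 to 3422 CPM and 1833 to 2489 CPM in LT-HSCs (3 of 7 lower). Erythroid markers summed to 42.2 to 51.2 CPM and 21.5 to 30.2 CPM in ST-HSCs and 42.1 to 52.2 CPM and 28.8 to 33.9 CPM in LT-HSCs, with 1 of 5 tested genes lower in each. Lymphoid markers summed to 76.0 to 80.7 CPM and 33.4 to 40.1 CPM in ST-HSCs and 17.1 to 22.7 CPM and 7.73 to 11.3 CPM in LT-HSCs, with 1 of 6 tested genes lower in each. Stromal and endothelial markers summed to 121 to 127 CPM and 113 to 122 CPM in ST-HSCs and 70.6 to 80.7 CPM and 70.4 to 72.3 CPM in LT-HSCs, with 1 of 6 genes lower in each and sums that overlapped in both cell types. The summed levels of neutrophil and of mast cell markers overlapped between control and NR in both cell types, and Ly6g, Hba-a1 and Cma1 averaged under 0.1 CPM. The part of these cells, or of the stem cell markers, in the changes of the 41 genes was not tested.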

How the data were processed

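RNA was measured in 12 libraries from 4 groups of 3 samples. The authors deposited raw read counts per Ensembl gene, and the deposited counts were used as they are. The tools named in the submitters' processing notes are FastQC 0.11.2 for quality, STAR 2.5.0b for alignment and HTSeq 0.6.1 for counting. Per the labels' protocols, libraries were made from 2.5 ng RNA with SMART-seq v4 amplification and Nextera XT. For build, annotation release, strand setting and reads with several matches, nothing was given in the sources used here. Reads in no feature (8.69% to 28.5%) and ambiguous reads (3.30% to 4.38%) were left out of library sizes. Identifiers were matched to symbols and exon lengths with GENCODE M21 (53274 of 53465), and 0 columns were left unused.

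edgeR 4.0.16 in R 4.3.3 (quasi-likelihood fit and test, two-sided, TMM factors) was fitted to the 12 libraries with a mean for each of the 4 groups, after a filterByExpr step (minimum count 10, minimum total 15), with 8 residual degrees of freedom and a biological coefficient of variation of 0.402. A gene was called at an adjusted p under 0.05 (Benjamini-Hochberg, over all 19830 genes tested), and the script was tested on simulated counts. CPM values use the same factors, and CPM per kb and per-length ratios divide by the merged length of all annotated exons of a gene. SE is that of the log2 change and intervals are 95% intervals from the moderated t distribution. The 41 genes, the related lists and the markers were chosen with earlier results of these data known. Values in every sample are given for Nfe2l2, Keap1, Bach1 and genes called with NR at an absolute log2 change of at least 0.5, with further examples (Prdx1, Prdx4 and Gstt1) chosen after their values were seen.

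Alternatives were upper-quartile or relative log expression factors, no filter on counts, a filter at a mean of 5 CPM (10475 genes), DESeq2 1.42.0, a fit of the compared groups alone, a replicate block by sample number, the unassigned share as covariate, leaving out the 2 libraries over 20% unassigned, and leaving out each library in turn. Deviations from the group means of same-numbered samples, taken over genes, correlated at 0.51, 0.25 and 0.71 between LT-HSC control and NR and at 0.74, 0.15 and 0.84 between LT-HSC and ST-HSC NR samples. The numbers were taken to pair these samples, but only the replicate block used them and the main fit did not. Sample 2 does not bear the pairing out. LT-HSC control sample 2 correlated more with LT-HSC NR sample 1 (0.33), and LT-HSC NR sample 2 more with ST-HSC NR sample 1 (0.37). Both NR samples 3 were over 20% unassigned. Unlike numbers correlated both ways. ST-HSC control sample 2, at 17.0% unassigned, correlated at 0.53 with LT-HSC NR sample 3 and at 0.51 with ST-HSC NR sample 3. LT-HSC NR sample 3 correlated at -0.78 with ST-HSC NR sample 1. The part of the unassigned share in these correlations was not tested. The labels do not say what a number stands for.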

Additional observations from a re-analysis of the deposited data

How the results depend on the processing

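In LT-HSCs the 6 lower genes became 1 with no filter and without the 2 libraries over 20% unassigned, and 3 with only the groups compared. In ST-HSCs the 5 lower genes became 3 with relative log expression factors and with DESeq2, and 2 with no filter and without those 2 libraries. The 10 and 18 higher genes became 12 to 15 and 19 to 21 under the other settings. Leaving out each library in turn gave 8 to 10 higher and 1 to 3 lower in LT-HSCs, 14 to 20 higher and 1 to 5 lower in ST-HSCs, 0 for the difference of the NR effects, 7 to 8 between the cell types in control culture and 4 to 8 between them with NR. The difference of the NR effects held 0 called genes, 1 with upper-quartile factors, the stricter filter or the covariate, 2 with no filter and 4 with DESeq2. LT-HSCs against ST-HSCs with NR held 8 called genes, 15 with upper-quartile factors or DESeq2 and 16 with the stricter filter. With the replicate block these 2 counts were 1 and 13, and NR against control gave 20 higher and 6 lower in ST-HSCs. Same-numbered ST-HSC samples correlated at 0.67, -0.06 and 0.55 between control and NR and were not taken as paired. The same held between the cell types in control culture (0.42, -0.23 and 0.43), where 8 genes stayed called with the block. The causes of these moves were not tested. Among the values of single genes, 2241 of 2452 kept their side of the threshold, 107 lost and 104 gained a call, 0 called values turned direction and 149 of 1525 uncalled values changed sign. With 3 samples a group and genes such as Mgst2 and Gpx7 at a few CPM, small changes may go uncalled.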
